A study of Mus musculus with 2 samples.

Results

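The early growth response (EGR) transcription factors and the NAB corepressors that bind them were examined in nascent RNA from mouse macrophages, before and 1 hr after interleukin-4 (IL-4). The 5 genes were Egr1, Egr2, Egr3, Nab1 and Nab2, and their transcripts were all those that the authors' annotation named for one of them. This gave 38 of 94487 called transcripts, 15 in the control library and 23 in the IL-4 library. Of the 5 genes, 2 had a transcript in control and 4 after IL-4, among 11054 genes named in either library.

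The cells were bone marrow-derived macrophages (BMDMs) of wild-type mice aged 8 to 12 weeks, grown from marrow precursors for 6 days in L929 cell supernatant, which supplies the macrophage growth factor M-CSF. Control cells received no IL-4, and the other cells received 20 ng/ml IL-4, the cytokine of alternative macrophage polarization, for 1 hr. Global run-on sequencing (GRO-seq) lets polymerases already on the DNA extend their RNA with a tagged nucleotide, and so captures RNA in the act of being made. Duplicate run-on reactions were pooled into 1 library per condition, so every value here has n = 1 and no test could be made.

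Each called transcript is a strand-specific stretch of run-on signal with a score printed to 1 decimal. The only error that could be computed is rounding, 0.05 on either side of a printed score, and it says nothing of differences between cultures. Whether the score was scaled to library size is not given in the sources used here, and the depth is unknown, so a gene without a call was not called at this depth rather than silent. The IL-4 library had the longer list, 51365 against 43122 transcripts, and more of it at the lowest printed scores, with 33.58% of transcripts at 0.1 or less against 14.05% in control. All 10 macrophage markers were called in both libraries, none of them 2-fold apart. T cell and fibroblast markers were not called in either library (0 of 4 each), and 2 of 6 granulocyte, 1 of 3 dendritic cell and 1 of 4 B cell markers were called in each, with 1 of 4 erythroid markers after IL-4 only. On the strand of the gene, all 10 macrophage and 2 of 6 granulocyte markers had a transcript in each library, and no marker of the other cell types had one in either. The highest score under a marker of another cell type, Cd209a at 18.9 and 25.5, thus came from a transcript that does not overlap Cd209a on its strand.

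EGR factors are zinc finger proteins that are switched on within minutes of many signals and bind a GC-rich motif. Their transcription classically runs from growth factor receptors through the kinase ERK to serum response factor (SRF), which binds the CArG box in their promoters. NAB1 and NAB2 bind EGR1, EGR2 and EGR3 and repress their targets, NAB2 partly by recruiting the NuRD chromatin complex, and NAB2 is itself an EGR target, which closes a feedback loop. In the macrophage lineage EGR factors are known for their part in monocyte differentiation.

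The sequences below are shown because Egr2 was the gene called after IL-4 only with several transcripts, and because the CArG box and the EGR motif are the known entry points of this loop. They come from RefSeq (GRCm38.p6, which has the coordinates of mm10, the build of the transcripts). RefSeq promoter entries, 250 bases before to 50 bases after a start site, were found for 3 of the 5 genes, Egr2, Nab1 and Nab2. Both strands were searched. In the Egr2 promoter, chr10:67537619-67537868 on the plus strand, the capitals mark the CArG box at positions -72 to -63 from the start site at 67537869. In the second run, chr10:67537484-67537513, they mark another CArG box at positions -375 to -366 from the same start. This box lay in the window of another Egr2 start site, at 67537566.
Egr2 promoter: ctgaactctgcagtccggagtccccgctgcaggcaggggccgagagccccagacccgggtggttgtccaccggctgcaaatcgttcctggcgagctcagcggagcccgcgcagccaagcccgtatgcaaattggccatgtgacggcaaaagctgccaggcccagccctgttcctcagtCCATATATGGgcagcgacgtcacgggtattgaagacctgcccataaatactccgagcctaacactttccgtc
Egr2 upstream CArG window: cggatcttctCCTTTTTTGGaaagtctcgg
A CArG box was found in 1.629% of the 32851 mouse promoter windows. This share is per window, whereas Egr2 had 5 windows, of which the one with its start site at 67535499 held no box. The box nearer to the Egr2 start lay between the 5' ends of the divergent pair of transcripts described next, and the farther one lay under the antisense transcript of that pair.

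Nab1 carried the EGR motif GCGTGGGCG at 2 places upstream of its start site at 52500448 on the minus strand of chromosome 1, once in each orientation. The motif is in capitals in both stretches, at chr1:52500576-52500594 and chr1:52500544-52500562, read along the minus strand.
Nab1 EGR window 1: gcggcCGCCCACGCcggga
Nab1 EGR window 2: gccgcGCGTGGGCGggagc
These sites lay at positions -141 to -133 and -109 to -101 from the start, and 0.6119% of all windows held at least 1 such motif. The looser form GCGNGGGCG, which includes the first, was found once more in the Nab1 window and in 5.552% of all windows. Neither EGR form and no CArG box was found in the Nab2 window. The IL-4-activated factor STAT6 prefers TTCNNNNGAA (6.953% of windows), and STAT factors in general TTCNNNGAA (8.298%). Neither was found in a window of Egr2, Nab1 or Nab2, and bases outside these promoter windows were not searched. Each match is a run of letters and was not tested for binding.

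Egr2 encodes a zinc finger activator best known from Schwann cells, hindbrain and immune cells. It had no transcript in the control library and 8 after IL-4, with scores from 0.1 to 0.4. The gene (ENSMUSG00000037868.15, chromosome 10, 67535475 to 67542188, plus strand) has 2 exons in its main transcript. The highest score, 0.4, belonged to the sense transcript from 67537875 to 67538751, which began 6 bp past the start site and ran through exon 1 into the intron. The sense transcripts at 67539991 to 67541056 and 67541032 to 67541995, both in exon 2, scored 0.3 each. A last sense transcript, at 67542476 to 67542824, scored 0.1 and began 288 bp past the end of the gene. Together the sense transcripts covered 98.85% of exon 1, 26.72% of the intron of 1355 bp and 82.04% of exon 2. The IL-4 library thus had sense calls in both exons and past the 3' end, with a gap of 1239 bp that took in most of the intron. The control library had no call there on either strand.

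The other 4 transcripts named for Egr2 ran antisense. Upstream, one from 67537388 to 67537743 scored 0.1, and its 5' end lay at position -126, facing away from the sense transcript with 131 bp between their 5' ends. Farther upstream, in a CpG island that the authors' annotation calls intergenic and that GENCODE places within a longer Egr2 transcript, the one from 67536570 to 67537134 scored 0.3. The remaining antisense transcripts lay in the 3' UTR (67541038 to 67541360) and past the gene end (67542880 to 67543297), and scored 0.1 each. Antisense calls were thus at 0.1, apart from the one in the CpG island.

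**Figure D1:**
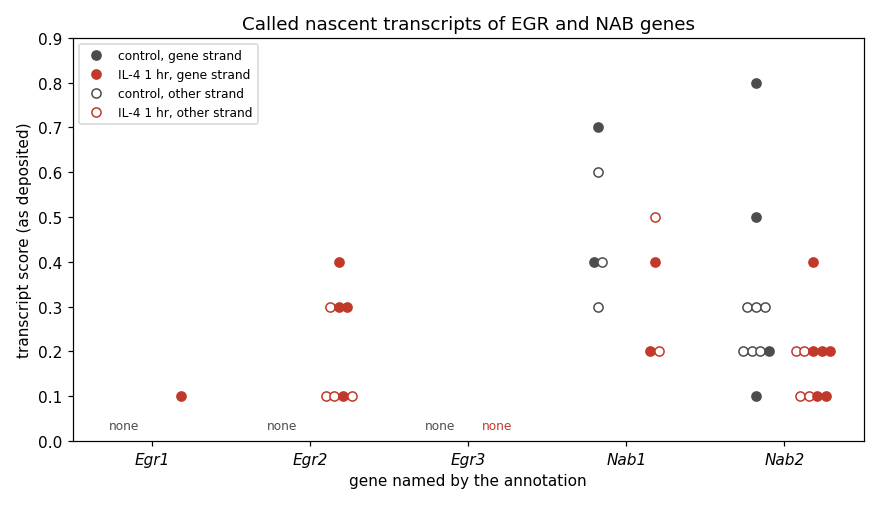
Score of every called transcript named for each gene (y axis, score as deposited), control in grey and IL-4 1 hr in red, filled where the transcript lies on the strand of the gene. Egr2 has 8 points after IL-4, from 0.1 to 0.4, and none in control, Egr1 has 1 at 0.1, Egr3 has none, and the highest Nab2 point is 0.8 in control and 0.4 after IL-4.

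Calls in one library only were frequent, so the Egr2 result was set beside the other genes. Of the 11054 genes, 11.1% were called after IL-4 only and 8.58% in control only. Among the 5 members, of which Egr3 was called in neither library, 2 were called after IL-4 only (Egr1 and Egr2) and none in control only. Most of the 1227 genes called after IL-4 only rested on little: 72.62% had a single transcript. To place Egr2 among the 1227, its own values were taken as limits. By these, 14 genes (1.141%), Egr2 included, had 8 or more transcripts, and 119 (9.698%) reached a score of 0.4. A score times length, summed over the transcripts, as large as the 1274 of Egr2 was found in 6 (0.489%). The 8 transcripts of Egr2 lay at the same locus in 1 library and are not separate pieces of evidence. Of them, 4 scored at least 0.2. The level itself was ordinary, with 49.13% of all genes called after IL-4 at or above 0.4.

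Egr1, the founding member of the family and an immediate early gene, was called once. The transcript lay on the gene strand of chromosome 18 (34861232 to 34861508), 25 to 301 bp past the start site, in the 5' UTR, and scored 0.1 after IL-4, with no call in control. A single transcript at 0.1 was also all that 410 (33.41%) of the genes called after IL-4 only had. The Egr1 call was therefore at the lowest printed score above 0 and of a kind common among these genes. Egr3 (ENSMUSG00000033730.4, chromosome 14, 70077203 to 70082614, plus strand), which shares the EGR motif with Egr1 and Egr2, had no transcript in either library. Egr4, the remaining family member, was not called in either.

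**Figure D2:**
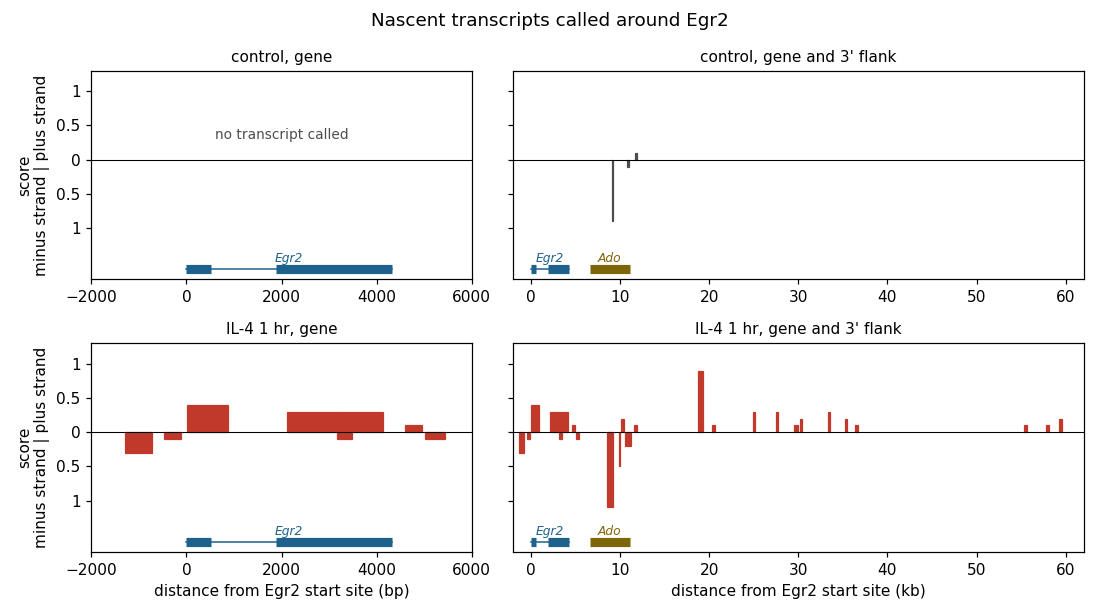
Called transcripts around Egr2 by distance from its start site (x axis, bp on the left, kb on the right), with the score upward for the plus strand and downward for the minus strand, control above and IL-4 1 hr below. In control only the 3 transcripts of Ado are drawn, while after IL-4 the Egr2 gene and 12 plus-strand positions between 18.69 and 59.57 kb carry calls.

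The only protein-coding neighbour within 5 kb of Egr2 was Ado, which encodes a thiol dioxygenase and lies 2322 bp past the Egr2 end on the opposite strand. Its highest score on its own strand was 0.9 in control and 1.1 after IL-4. The control library thus had calls at the neighbouring gene while it had none at Egr2. By name, the log2 ratio of Ado between the libraries was 0.67 (rounding range 0.52 to 0.81) once the median of all genes was subtracted, as done for the NAB genes.

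Beyond Ado, within 100 kb of Egr2, the IL-4 library held 12 further transcripts, all on the plus strand as Egr2 is. They were annotated as intergenic and named for Ado because that start site is nearest. They lay between 67556562 and 67597436, that is 18.69 to 59.57 kb from the Egr2 start. Their scores ran from 0.1 to 0.9 with a median of 0.2, and their lengths from 153 to 606 bp. The strongest, at 67556562 to 67557167, scored 0.9, above any transcript of Egr2 itself. None of the 12 overlapped a control transcript. Within 100 kb of Egr2 on both sides the libraries therefore differed by 3 transcripts against 25. In all, 24 transcripts were named for Ado after IL-4 and 3 in control, and those outside this window are not described here. Whether the run of 12 belongs to Egr2, to Ado or to a separate unit was not tested.

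The NAB genes differed from Egr2 in that both were called before IL-4. For genes called in both libraries, the gene value was the highest score under its name, and from each log2 ratio (IL-4 to control) the median of the 8879 genes called in both, -0.38, was subtracted. The result is called the centred ratio. On this scale 8.06% of genes were at least 2-fold higher and 8.62% at least 2-fold lower after IL-4. Neither Nab1 nor Nab2 was among them.

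Nab2 (ENSMUSG00000025402.12, chromosome 10, 127660918 to 127668568, minus strand) was the name of 10 transcripts in each library. At its start the transcript from 127666091 to 127666797 scored 0.8 in control, and its counterpart from 127665977 to 127666712 scored 0.4 after IL-4. Centred, the log2 ratio was -0.62 (rounding range -0.90 to -0.36), and without centring it was -1. In exon 2 the scores were 0.5 in control and 0.2 with IL-4, and the centred ratio was -0.94 (-1.50 to -0.47). Overlapping same-strand transcripts of the libraries formed 7 pairs under the name of Nab2, 3 on its strand and 4 on the other. The printed score was lower after IL-4 in 6 of them, 3 on each strand, beside 54.3% of all 27464 such pairs in the libraries. Once centred on the median of the gene values, 2 of the 7 pairs had a rounding range wholly below 0, those at the start and in exon 2. The same was not counted over all pairs, so this count has no background share.

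Not all transcripts named Nab2 came from Nab2. This corepressor gene lies tail to tail with Stat6, which encodes the main transcription factor downstream of the IL-4 receptor, and the 2 genes overlap by 40 bp. Of the transcripts named Nab2, 6 in control (0.2 to 0.3) and 4 after IL-4 (0.1 to 0.2) lay on the Stat6 strand and overlapped Stat6, though 1 in each library ran past its end into Nab2. The Nab2 strand held 4 in control (0.1 to 0.8) and 6 after IL-4 (0.1 to 0.4). Restricting to the Nab2 strand left the gene value as it was, since the highest transcript was the same. Stat6 itself scored 1.3 in control and 0.9 with IL-4, and its centred ratio was -0.15 (-0.29 to -0.02). The rounding ranges of the Nab2 and Stat6 ratios did not overlap, with Nab2 the lower.

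**Figure D3:**
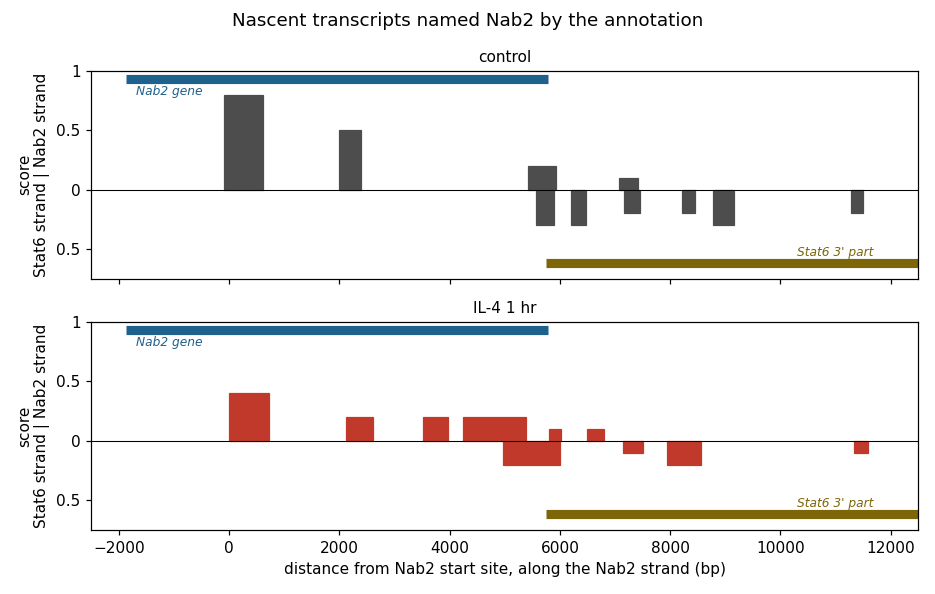
Transcripts named Nab2 by distance along the Nab2 strand from its start site (x axis, bp), with the score upward for the Nab2 strand and downward for the Stat6 strand, control above and IL-4 1 hr below. The block at the start is 0.8 in control and 0.4 with IL-4, where additional low blocks stand at 0.2 between 3515 and 5390 bp.

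Along the Nab2 gene the height and the spread of the signal went opposite ways. Sense transcripts covered 22.13% of the gene in control and 44.27% after IL-4, with a mean score over the covered bases of 0.51 and 0.23, respectively. The transcripts at 127661313 to 127662468 and 127662741 to 127663188, both at 0.2, had no control counterpart. The product of score and covered length inside the gene was 857.2 in control and 769.5 after IL-4. By this measure the centred log2 ratio of Nab2 was -0.28, against -0.62 by the highest score. Longer transcripts were general in the IL-4 library, where the median length was 312 bp against 227 bp in control, and their part in the Nab2 coverage was not tested.

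The 3 genes most like Nab2 over both libraries were Rab2a, Vgll4 and Iws1, each at 0.8 in control and 0.4 after IL-4. In all, 70 genes had these same printed scores, so the likeness has little resolution. Among its annotated neighbours, the nuclear envelope gene Nemp1, which overlaps Nab2 head to head by 1668 bp, had 2 control transcripts on its strand (highest 0.4) and 1 with IL-4 (0.3). The antisense genes Gm16229, inside Nab2, and Gm16230, 3035 bp away, had none on their strands.

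Nab1 (ENSMUSG00000002881.14, chromosome 1, 52457294 to 52500679, minus strand) was represented by 5 control and 4 IL-4 transcripts. Its highest scores were 0.7 and 0.5, and the centred ratio of -0.11 had a rounding range (-0.36 to 0.14) that included 0. These values came from different places. The control value was a sense transcript in an LTR element of intron 2 (52489761 to 52489950), while the IL-4 value was an intergenic transcript on the other strand (52513614 to 52513693), whose 5' end lay at position -13166. The same intron 2 position scored 0.4 after IL-4, and with it the centred ratio was -0.43 (-0.72 to -0.15).

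Close to the Nab1 start, the sense transcript at the beginning of intron 1 scored 0.4 in control (52499753 to 52499987) and 0.2 after IL-4 (52499620 to 52499980). The divergent transcript at the promoter, beside the EGR motifs shown above, scored 0.3 in control (52500635 to 52500995) and 0.2 after IL-4 (52500664 to 52500898). The upstream intergenic transcript scored 0.6 and 0.5. All 4 overlapping pairs of Nab1, 2 on its strand and 2 on the other, were thus lower in the printed score after IL-4. Of all 27464 such pairs in the libraries, 54.3% were lower. Centred on the median of the gene values, the ratios of the Nab1 pairs ran from -0.62 to 0.12. The rounding ranges of 2 of the 4, the sense pairs, lay wholly below 0, which was not counted over all pairs. Sense transcripts covered 0.9796% of this long gene in control and 1.454% after IL-4, so few of its bases lay in a called transcript. The pseudogene Gm5976, 2554 bp upstream, had no transcript on its strand.

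By highest score the order in control was Nab2 (0.8) and Nab1 (0.7), and after IL-4 it was Nab1 (0.5), Nab2 and Egr2 (0.4 each) and Egr1 (0.1). By name, Nab1 and Nab2 differed by 0.1 in each library, and the rounding ranges of such neighbours meet at their edges. The Nab1 value after IL-4 was the intergenic transcript on the other strand. On its own strand Nab1 reached 0.4 after IL-4, as Nab2 and Egr2 did. The score is not known to be given per length, so levels of different genes are set side by side as printed scores only.

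**Figure D4:**
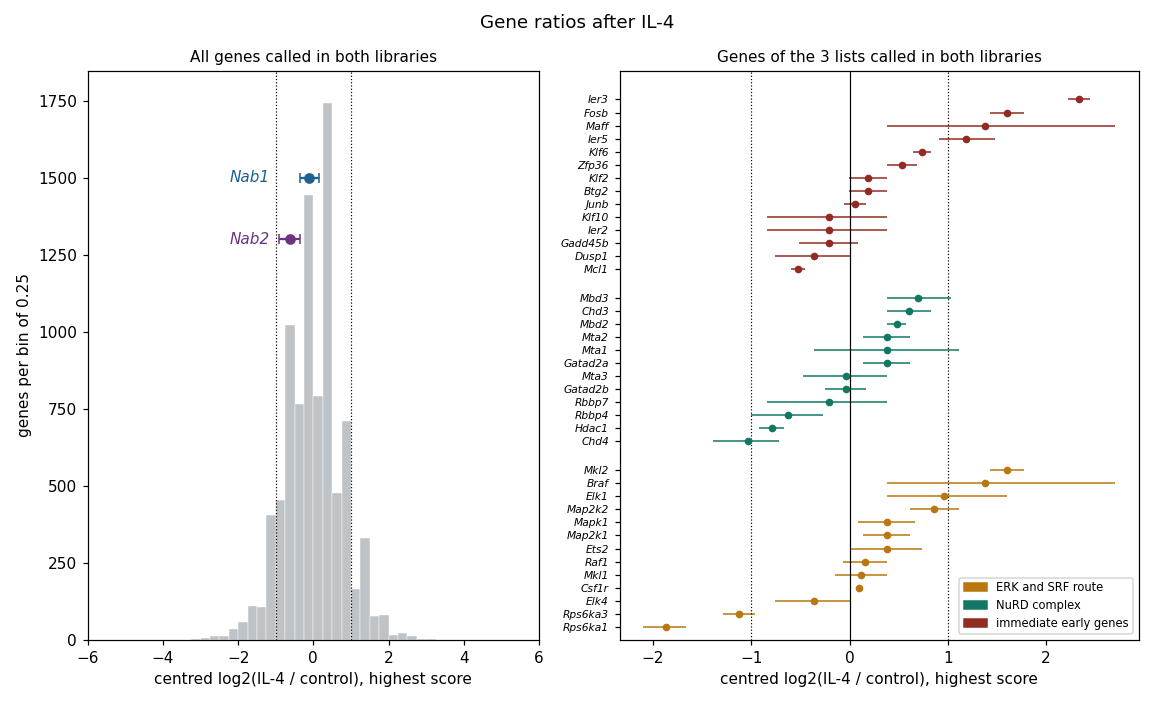
Left, number of genes per bin of centred log2 ratio (IL-4 over control), with Nab1 and Nab2 and their rounding ranges drawn above the bars at arbitrary height. Right, the same ratio for each gene of the 3 lists called in both libraries, where bars are rounding ranges and dotted lines mark 2-fold. Ier3, Fosb and Mkl2 lie beyond 2-fold over their whole range on the higher side and Rps6ka1 on the lower side. The Fosb values came from transcripts that do not overlap Fosb on its strand.

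The genes around the EGR and NAB loop were described as 3 lists, beside the same counts for all genes called in both libraries (median 0, with 8.06% at least 2-fold higher and 8.62% at least 2-fold lower on the printed scores, and 3.67% and 3.85% over the whole rounding range). The route from the M-CSF receptor through ERK to SRF comprised 16 genes, of which 13 were called in both libraries, 2 at least 2-fold higher and 2 at least 2-fold lower, with a median of 0.38, and 1 in each direction was so over the whole rounding range. Mkl2, a coactivator of SRF, scored 0.6 in control and 1.4 with IL-4, and its centred ratio was 1.60 (1.43 to 1.78). It had 5 transcripts on its strand in control and 29 after IL-4. Rps6ka1, which encodes an ERK-activated kinase, went the other way, from 1.9 to 0.4, with a ratio of -1.87 (-2.10 to -1.66). Srf itself was not called in control and had 1 transcript at 0.1 after IL-4. It was the 1 gene called after IL-4 only among the 16 of this list called in either library. Another 2, Mapk3 (0.3) and Elk3 (0.2), were called in control only. Over all genes called in either library these shares were 11.1% and 8.58%.

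Of the NuRD complex, the partner of NAB2, 12 of 13 genes were called in both libraries, none at least 2-fold higher and 1 at least 2-fold lower, with a median of 0.17. None was 2-fold apart over its whole rounding range. Of 20 other immediate early genes, 14 were called in both libraries, 4 at least 2-fold higher and none lower, with a median of 0.19, and 2 were higher over the whole rounding range. By the highest score on the gene strand, 2 were at least 2-fold higher and 1 lower, beside 556 and 588 of 7151 genes. Ier3, an immediate early gene of survival signalling, scored 0.8 in control and 3.1 with IL-4 on its own strand, with a ratio of 2.33 (2.22 to 2.45). Fosb, an AP-1 subunit, had 0.6 and 1.4 by name (1.60, 1.43 to 1.78), but both values came from transcripts that do not overlap Fosb on its strand, where it scored 0.2 in control and was not called after IL-4. A further 3 immediate early genes were called after IL-4 only, 2 in control only and 1 in neither library. Calls after IL-4 only were thus 3 of the 19 genes of this list called in either library, beside 11.1% of all genes so called. Among these 3, Nr4a3 had no transcript on its own strand.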

How the data were processed

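The authors aligned GRO-seq reads to mm10 with BWA, removed regions on the ENCODE blacklist and called transcripts per library with HOMER in its GRO-seq mode, then annotated each with the gene of the nearest start site. The submitters' processing notes list BWA 0.7.10, SAMtools 0.1.19 and HOMER 4.2. The only measurement in the deposited transcript files was a score, rounded to 1 decimal. Read counts and depths were not used here. Scores were used as deposited, with no filter. A gene's value was its highest score. Log2 ratios were centred on the median gene, called at 2-fold, and recomputed over the rounding range of 0.05. No test was possible with 1 library per group. Transcripts were paired by same-strand overlap of at least 1 bp. Gene positions came from GENCODE M21 (GRCm38) and promoter windows from RefSeq. Named genes were the 5 members, list genes 2-fold apart over the whole rounding range, genes within 5 kb of a member, and the 3 genes most like the member with the largest ratio; other genes named were chosen after their values were seen. The 5 members, the lists and the motifs were chosen with earlier results of these data known. The ratio code was tested on simulated data. Python 3.11.15, pandas 2.3.3 and numpy 2.4.6 were used.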

Additional observations from a re-analysis of the deposited data

How the results depend on the processing

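No paired analysis was possible because each condition had 1 library, and no replicate could be left out. The Nab2 ratio (-0.62) was below 0 in all 11 alternatives: -0.35 with score times length summed by name, -0.28 with score times length inside the gene on its strand, and -1 both without centring and with the transcript nearest the start. The Nab1 ratio (-0.11) was below 0 in 9 of 11. It was -0.60 with summed scores, -0.81 with score times length by name, -0.58 with the transcript nearest the start, -0.42 with gene-strand overlap, -0.46 with score times length inside the gene, -0.49 without centring and -0.43 both without intergenic transcripts and, chosen after seeing the data, with named gene-strand transcripts only. It was 0.06 without repeats and 0 when centred on genes of at least 0.5. The number of members 2-fold apart (0) became 1, Nab2, at 1.5-fold. In settings applied to this number after seeing the data it became 1, again Nab2, with the nearest transcript or without centring, and 1 with missing values at 0.1, when Egr2 reached a centred ratio of 2.32. The number of members called after IL-4 only (2) became 1, Egr2, at a minimum score of 0.2 or 0.3, limits added after seeing the data. Over all genes, 716 were higher and 765 lower. The numbers were 1529 and 1500 with score times length and, in settings added after seeing the data, 326 and 342 over the whole rounding range and 531 and 2161 without centring. Of 18 recounts of the lists, 9 stayed within 1.5 times, and immediate early genes had 5 lower with score times length. The unknown depth limits every statement on a missing call.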

Other observations

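The difference in called transcripts around Egr2 was compared with other protein-coding genes, as a description without a test. Within 100 kb on either side, 374 of 21894 genes (1.708%) had at least 22 more transcripts after IL-4, as the Egr2 window had, and the median difference was 0. Of the 25 transcripts in the Egr2 window after IL-4, 8 were named for Egr2. The counts of the Egr2 window were next taken as limits, so Egr2 meets them by construction. Of 9638 genes with 3 or fewer transcripts in such a window in control, 6 had 25 or more after IL-4. They were Egr2 and its neighbour Ado, which share the window, and Gm45261, Tfec, Osbpl3 and Fyn. The windows of the other members held 25 transcripts in control and 28 after IL-4 for Egr1, 11 to 4 for Egr3, 5 to 4 for Nab1 and 48 to 22 for Nab2.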
